A study of Homo sapiens with 4 samples.

Results

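Potassium channel genes were described in PANC-1, a human pancreatic ductal adenocarcinoma cell line, and in PZT-2, a clone derived from it by knockdown. The genes were chosen by name, as every gene whose symbol begins with KCN, goes on with at least 1 more letter and then has a number, and that had a transcript in the abundance table. Of 111 such names listed by the study, 45 had a value and 66 had none, out of 15221 genes with a value in all. No level can be given for the 66 names without a value. The name rule also takes in 3 RNA genes named after a channel gene beside or across from them, KCNIP2-AS1, KCNK15-AS1 and KCNQ1OT1. They encode no channel but stay in the counts, shares, medians and ranks over the family. Only the summed TPM of the family leaves them out.

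RNA sequencing had been run on 2 libraries of PANC-1 that carry no shRNA and on 2 of PZT-2, in which shRNAs target each of the 3 isoforms of the histone variant H2A.Z, namely H2A.Z.1 and both H2A.Z.2 forms. The paper gives a medium with serum for PANC-1 and none separately for PZT-2. The transduced cells were selected with puromycin, and no further treatment is given. PZT-2 is 1 clone that went through transduction and selection, so the knockdown, the clone and the selection cannot be told apart in these libraries. The paper also describes sequencing of cells with a scrambled shRNA, and reports similar gene differences of PZT-2 against either control. Libraries of those cells are not among the samples used here. The study calls the libraries of each line biological replicates but does not say that they came from separate cultures, and the p values then measure only the spread between these samples. The comparison asked whether the loss of KCNQ5 transcripts in PZT-2 was shared by the rest of its gene family.

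Potassium channels let potassium leave or enter the cell through a selective pore and so set the membrane potential. Voltage-gated channels open when the membrane depolarizes, calcium-activated channels open when cytosolic calcium rises, inward rectifiers and the K2P leak channels hold the resting potential, and smaller subunits tune the pores they bind. In the pancreatic duct, potassium channels supply the driving force for the secretion of anions, and KCNQ5 encodes Kv7.5, a slowly activating voltage-gated subunit better known from neurons and smooth muscle.

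The recovered library totals lay between 12861388 and 15717448 estimated counts. The knockdown targets were lower in PZT-2. H2AFZ, the gene of H2A.Z.1, had 6389 and 6034 normalized counts in PANC-1 and 2212 and 2259 in PZT-2 (log2 change -1.47, adjusted p = 6.14e-05). H2AFV, the gene of both H2A.Z.2 isoforms, had 3344 and 3452 in PANC-1 and 2590 and 2717 in PZT-2 (log2 change -0.36, adjusted p = 0.00563). A normalized count is a gene's count divided by the effective size of its library and scaled to the mean library. All 5 ductal epithelial markers had values, with a summed level of 85553 to 86599 normalized counts in PANC-1 and 44352 to 45163 in PZT-2, and none of the 5 acinar or the 5 islet markers had a value. Of other lists, 2 of 5 leukocyte markers summed to 5.63 to 7.23 in PANC-1 and 19.1 to 31.6 in PZT-2, 1 of 4 endothelial markers to 4.52 to 12.4 and 4.03 to 8.90, and 1 of 5 fibroblast markers, COL1A1, lay at 494 to 531 and 135 to 170. PTPRC, CDH5, VWF and DCN, which define leukocytes, endothelium and fibroblasts, had no value, and the part of these marker differences in the results that follow was not tested.

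KCNQ5 lies on chromosome 6. To show the sequence around the start of the gene that chose the family, the 250 bases before its RefSeq start are printed beside the same window of KCNK3 and KCND1, which moved in opposite directions between the cell lines. All 3 are on GRCh38.p14, in the direction of the gene, with CG dinucleotides in capitals. The KCNQ5 window is chr6:72621814-72622063 on the plus strand, that of KCNK3 is chr2:26692472-26692721 on the plus strand and that of KCND1 is chrX:48971845-48972094 on the minus strand.
KCNQ5: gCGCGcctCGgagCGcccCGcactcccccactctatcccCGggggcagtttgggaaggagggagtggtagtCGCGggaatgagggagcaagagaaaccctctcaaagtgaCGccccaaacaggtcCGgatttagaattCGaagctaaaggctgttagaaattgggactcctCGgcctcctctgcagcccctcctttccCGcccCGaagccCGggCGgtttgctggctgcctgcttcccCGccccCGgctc
KCNK3: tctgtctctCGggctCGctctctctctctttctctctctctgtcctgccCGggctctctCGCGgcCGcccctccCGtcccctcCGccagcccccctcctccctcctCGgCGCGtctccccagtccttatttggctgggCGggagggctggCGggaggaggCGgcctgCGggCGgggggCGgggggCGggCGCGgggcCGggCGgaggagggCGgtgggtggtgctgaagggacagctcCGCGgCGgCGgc
KCND1: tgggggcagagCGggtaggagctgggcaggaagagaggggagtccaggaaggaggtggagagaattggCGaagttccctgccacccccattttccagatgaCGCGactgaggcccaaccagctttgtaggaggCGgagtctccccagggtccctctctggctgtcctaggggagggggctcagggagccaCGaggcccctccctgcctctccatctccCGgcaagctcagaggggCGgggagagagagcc
The KCNQ5 window holds 18 CG dinucleotides at 64% G and C, the KCNK3 window 27 at 76.4% and the KCND1 window 8 at 65.6%. Over 35116 such windows the median was 11, and 36.8% held as many as KCNQ5, 17.7% as many as KCNK3 and 56.3% as many as KCND1. Windows could be matched for 29 of the 45 genes, with a median of 17 over their windows. The letters TATAAA and the palindrome CACGTG, searched on both strands, were in none of the 3 windows, against 10.7% and 6.34% of all windows. These are features of the sequence alone, since the libraries measure RNA and not what is bound at the promoter.

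KCNQ5 transcripts were nearly absent from PZT-2. The gene had 191 and 290 counts in the PANC-1 libraries and 0 and 2 in the PZT-2 libraries, which is 215 and 262 against 0 and 1.98 normalized counts. Both PZT-2 libraries were far below both PANC-1 libraries. Pooled by cell line, 481 counts stood against 2, a ratio of 242 with a 95% exact interval from 66.5 to 2001 that covers counting error only. This fall chose the family, so it is given as a description without a test. Per transcript length, KCNQ5 was at 4.13 and 5.17 TPM (transcript abundance corrected for length and depth) in PANC-1, the 14th highest level of the 45 genes by the mean over all 4 libraries, and at 0 and 0.0396 TPM in PZT-2. All its counts were assigned to 1 of 5 listed transcripts, NM_001160130 of 6568 bases.

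KCNQ1, a gene of the same family that encodes the pore of cardiac and epithelial channels and lies on chromosome 11, was low in both cell lines. It had 6.75 and 6.33 normalized counts in PANC-1 and 6.04 and 6.92 in PZT-2, and its values overlapped (log2 fold change -0.01, standard error 0.524, adjusted p = 0.997). It had 6 or 7 counts in each library.

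**Figure D1:**
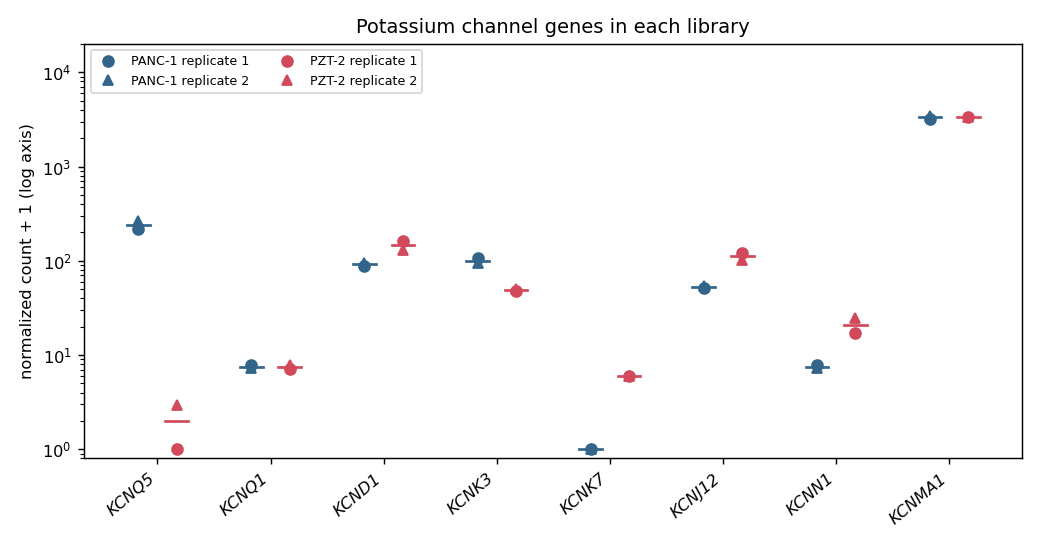
Normalized counts per library (log axis, plus 1) of KCNQ5 and 7 other potassium channel genes in PANC-1 and PZT-2, with 1 point per library and a bar at the mean of 2 libraries. KCNQ5 drops from 215 and 262 to 0 and 1.98, KCNQ1 lies between 6.04 and 6.92 in all 4 libraries, and KCNMA1 lies between 3225 and 3450 in all 4 libraries.

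KCNE genes encode single-span subunits that bind KCNQ and other voltage-gated pores. Of 3 with a value, 2 were tested and neither passed, beside 28.4% called of all genes tested. KCNE3 had 9.0 and 14.5 normalized counts in PANC-1 and 16.1 and 20.8 in PZT-2 (log2 fold change 0.63, standard error 0.440, adjusted p = 0.338). KCNE4 had 10.1 and 5.42 against 8.05 and 7.91 (0.06, standard error 0.542, adjusted p = 0.948). KCNE5 had 2, 2, 2 and 7 counts and was below the minimum for the test. With edgeR 0 of the 2 had an unadjusted p under 0.05, and DESeq2, which gave an adjusted p for 1 of them, called 0.

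Across the family, the called genes were a minority and went both ways. The 43 genes tested other than KCNQ5 include the 3 RNA genes. Of the 43, 8 passed an adjusted p of 0.05 in the quasi-likelihood test of edgeR, adjusted by Benjamini-Hochberg over 15101 genes. In PZT-2, 6 rose, among them KCNK7, which passed the minimum for the test through PZT-2 alone, and 2 fell. That is 18.6%, against 28.4% of all genes tested, of which 14.7% were called higher and 13.7% lower. At an unadjusted p under 0.05 there were 12, of which 2 were RNA genes. The cell lines did not overlap for 27 of the 43 genes (62.8%, against 66.2% of all genes), with PZT-2 above for 17 (33.3% of all genes) and below for 10 (32.9% of all genes). The median log2 fold change of the 43 was 0.10, with 25 positive and 18 negative, and that of all genes tested was 0.000953.

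Potassium channel genes were mostly low in these cells, which limits what the test could call. Their median level was 31.1 normalized counts, against 272 over all genes tested, and 21 of the 45 were below 20 while 10 were above 100. Of the 23 genes other than KCNQ5 with at least 10 counts in every library, 7 were called (30.4%), 5 of them higher, against 36% of all genes at that minimum. KCNK7 and KCNG2 passed the minimum for the test through PZT-2 alone, and KCNK15-AS1 and KCNQ5 through PANC-1 alone, so these had to differ in that direction.

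**Figure D2:**
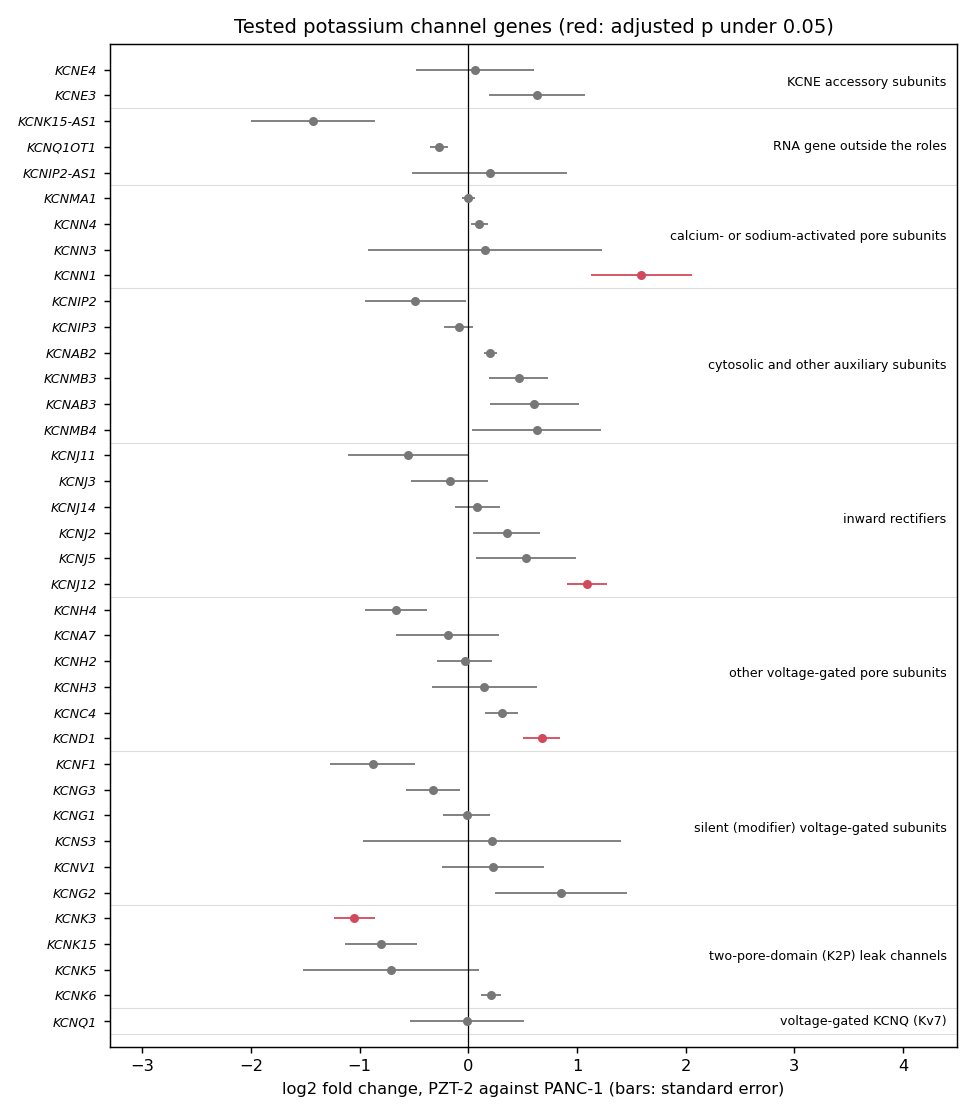
Log2 fold change of PZT-2 against PANC-1 with its standard error for 38 tested potassium channel genes, ordered by role, with genes at an adjusted p under 0.05 in red. KCNQ5, whose fall chose the family, and KCNK7, which is at 0 in both PANC-1 libraries, are not drawn, nor are genes whose results are not reported here. The points lie on both sides of 0 in most roles, and KCNK3 at -1.05 and KCNN1 at 1.59 are the called genes farthest from 0 among those drawn.

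Among the other voltage-gated pore genes, KCND1, which encodes Kv4.1, an A-type channel, rose in PZT-2. It had 87.8 and 94.0 normalized counts in PANC-1 and 161 and 130 in PZT-2. Its log2 fold change was 0.67 (standard error 0.167, adjusted p = 0.0264), or 1.59-fold. Genes of chromosome X, where KCND1 lies, had a median log2 fold change of -0.29. The call of KCND1 was lost without PZT-2 replicate 1 (log2 fold change 0.51, adjusted p = 0.153) and with DESeq2 (adjusted p = 0.111).

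KCNC4, which encodes the fast channel Kv3.4, was not called, at 182 and 154 normalized counts in PANC-1 and 188 and 226 in PZT-2 (log2 fold change 0.31, standard error 0.149, adjusted p = 0.179). KCNH4, an ether-a-go-go-like channel gene, had 47.3 and 52.4 against 37.2 and 25.7 (-0.66, standard error 0.284, adjusted p = 0.131), with PZT-2 below PANC-1 in both libraries. KCNH2, the gene of the cardiac hERG channel, had 42 and 44 counts in PANC-1 and 39 and 46 in PZT-2, and its values overlapped. KCNA7 had 10 and 14 against 13 and 8 counts, and KCNH3 8 and 10 against 12 and 8.

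Silent subunits of the voltage-gated class form no channel alone and modify the pores of other subunits. None of the 6 tested was called by edgeR, beside 28.4% called of all genes tested. Of the 6, 0 had an unadjusted p under 0.05, and DESeq2 called 0 of the 3 for which it gave an adjusted p. KCNG1 led the role with 100.1 and 73.2 normalized counts in PANC-1 and 77.5 and 93.0 in PZT-2, which overlap (log2 fold change -0.01, standard error 0.216, adjusted p = 0.973). KCNG3 had 41.6 and 43.4 against 33.2 and 34.6 (-0.33, standard error 0.251, adjusted p = 0.386), without overlap. KCNF1 had 21 and 21 counts in PANC-1 against 11 and 12 in PZT-2, KCNV1 7 and 10 against 11 and 9, and KCNG2 4 and 3 against 7 and 6. KCNS3 had 9 and 0 counts in PANC-1 and 7 and 4 in PZT-2, so that 1 PANC-1 library alone was at 0.

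Calcium-activated channels held the most abundant potassium channel transcripts, and these did not change detectably. KCNMA1, which encodes the pore of the large-conductance BK channel, had 3225 and 3450 normalized counts in PANC-1 and 3330 and 3354 in PZT-2, and its values overlapped (log2 fold change 0.00, standard error 0.0579, adjusted p = 0.993). KCNN4, the intermediate-conductance channel gene of many epithelia, had 493 and 472 against 511 and 523 (0.10, standard error 0.0785, adjusted p = 0.386). KCNN1, a small-conductance channel gene, had 6.75 and 6.33 normalized counts in PANC-1 and 16.1 and 23.7 in PZT-2. It rose by 1.59 (standard error 0.462, adjusted p = 0.0443), on 13 counts against 40, a ratio of 3.06 with a 95% exact interval from 1.60 to 6.24. The KCNN1 call was lost with each library left out in turn (adjusted p = 0.0767 and 0.0923 without PANC-1 replicates 1 and 2, 0.0613 and 0.182 without PZT-2 replicates 1 and 2) and with DESeq2 (adjusted p = 0.222). KCNN3 had 0 and 14 counts in PANC-1 and 6 and 9 in PZT-2.

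Inward rectifiers let potassium in more readily than out. Of 6 tested, 1 rose and 5 did not pass, where 14.7% of all genes tested were called higher and 28.4% in either direction. KCNJ12, which encodes Kir2.2, had 50.6 and 52.4 normalized counts in PANC-1 and 120 and 101 in PZT-2, without overlap. It rose by 1.09 (standard error 0.185, adjusted p = 0.00688), or 2.14-fold, and its call held in every alternative run on genes. Tested among single transcripts, its 1 transcript was not called by edgeR (adjusted p = 0.177) and was by DESeq2 (adjusted p = 0.0372). KCNJ18, a near-identical copy, was listed without a value, so reads of either gene could be counted under KCNJ12 and its level is uncertain. KCNJ2, the gene of the related channel Kir2.1, had 23.6 and 30.7 against 38.2 and 31.6 (0.35, standard error 0.310, adjusted p = 0.446), without overlap. KCNJ14 had 48 and 61 counts in PANC-1 and 57 and 59 in PZT-2. KCNJ3 and KCNJ5, whose products form G protein-gated channels, had 19 and 26 against 23 and 17 counts and 9 and 8 against 12 and 13. KCNJ11, the pore of ATP-sensitive channels, had 9 and 7 against 5 and 6 counts.

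Of the 5 K2P leak channels, 1 fell and 1 was called higher from 0, beside 28.4% called of all genes tested. KCNK3, which encodes the acid-sensitive leak channel TASK-1, had 106 and 93.1 normalized counts in PANC-1 and 46.3 and 49.4 in PZT-2, without overlap. It fell by 1.05 on the log2 scale (standard error 0.188, adjusted p = 0.00850) and was 2.07-fold lower, and the call held in every alternative run on genes. Tested among single transcripts, its 1 transcript was called by neither tool (adjusted p = 0.194 in edgeR and 0.0541 in DESeq2). KCNK7, a relative that forms no known current of its own, had 0 and 0 counts in PANC-1 and 5 and 5 in PZT-2. KCNK7 passed the minimum for the test through PZT-2 alone, so its direction was fixed and the call is no support. Corrected for library size, its pooled PZT-2 counts were 3.32-fold a floor of 3 counts over the PANC-1 libraries, with counting error left out. Its adjusted p was 0.0306, and the call was lost in the run on the most abundant transcript of each gene (adjusted p = 0.0665). KCNK7 has 1 transcript with a value, so its own counts were the same in that run. Without either PZT-2 library KCNK7 was below the minimum for the test. KCNK6, the gene of TWIK-2, was the highest of the role at 410 and 463 in PANC-1 and 506 and 505 in PZT-2 (0.21, standard error 0.0913, adjusted p = 0.136).

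KCNK15, a further leak channel gene, had 107 and 58.7 normalized counts in PANC-1 and 53.4 and 40.5 in PZT-2. The log2 fold change, -0.80, did not pass (standard error 0.332, adjusted p = 0.121), and without PANC-1 replicate 2 it did (log2 fold change -1.19, adjusted p = 0.00772). The RNA gene KCNK15-AS1, named as its antisense partner, had 11.2 and 8.13 in PANC-1 and 3.02 and 3.96 in PZT-2. The libraries were made with a stranded kit, but the counting is not stated to use the strand. Reads of this pair therefore cannot be told apart with certainty. KCNK5, the gene of TASK-2, had 11 and 5 counts against 2 and 8, which overlap.

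Auxiliary subunits attach to pores from the cytosol or the membrane. Of 6 tested with edgeR 0 were called, beside 28.4% of all genes tested. Among the 6, KCNAB2 alone had an unadjusted p under 0.05, and DESeq2 called 0 of the 5 for which it gave an adjusted p. KCNAB2, a beta subunit of Kv1 channels, had 863 and 845 normalized counts in PANC-1 and 983 and 983 in PZT-2, without overlap (log2 fold change 0.20, standard error 0.0634, adjusted p = 0.0555). It passed with at least 10 counts in all 4 libraries (adjusted p = 0.0442) and with limma-trend on log2(TPM + 1) (adjusted p = 0.0338). KCNIP3, a calcium-binding partner of Kv4 channels, had 171 and 165 against 146 and 170 and overlapped (-0.09, standard error 0.133, adjusted p = 0.669). KCNMB3, a beta subunit of the BK channel, had 49.5 and 51.5 in PANC-1 and 54.4 and 85.0 in PZT-2 (0.46, standard error 0.269, adjusted p = 0.253). It lies on chromosome 3, whose genes had a median log2 fold change of 0.43. KCNAB3, KCNIP2 and KCNMB4 had at most 20 counts in any library.

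The 3 RNA genes were not called by edgeR, beside 28.4% called of all genes tested. With edgeR 2 of the 3 had an unadjusted p under 0.05, and DESeq2 called 0 with an adjusted p for 1. KCNQ1OT1, the long antisense RNA of the imprinted KCNQ1 locus, had 434 and 449 normalized counts in PANC-1 and 371 and 363 in PZT-2, without overlap (log2 fold change -0.27, standard error 0.0835, adjusted p = 0.0559). With at least 10 counts in all 4 libraries its adjusted p was 0.0482. KCNIP2-AS1 had 2 and 5 counts against 5 and 3.

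On a scale that corrects for transcript length, 4 genes carried most of the family in both cell lines. KCNMA1 stood at 126 and 141 TPM in PANC-1 and 150 and 158 TPM in PZT-2 and made up 47.2% to 50.1% of the summed level of the 42 genes that encode channel subunits. Its TPM values did not overlap between the lines, unlike its normalized counts. With limma-trend on log2(TPM + 1) its log2 fold change was 0.21 and did not pass (adjusted p = 0.0874). KCNN4 had 29.1 and 28.7 TPM against 31.9 and 32.5, KCNAB2 27.3 and 27.1 against 33.6 and 33.2, and KCNK6 20 and 23.3 against 26.2 and 26.0. These 4 genes together made up 76% to 78.2% in each library. Among the genes that followed were KCNIP3, at 8.16 and 8.13 TPM in PANC-1 and 7.36 and 8.52 in PZT-2, KCNC4, at 5.23 and 4.96 against 6.15 and 7.12, and KCNG1, at 5.92 and 4.46 against 4.85 and 5.78. KCNC4 and KCNG1 overlapped in PANC-1 and did not in PZT-2. The summed level of the family was 266 and 282 TPM in PANC-1 and 311 and 322 TPM in PZT-2. KCNQ5, at 4.13 and 5.17 TPM, was a small part of it in PANC-1.

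**Figure D3:**
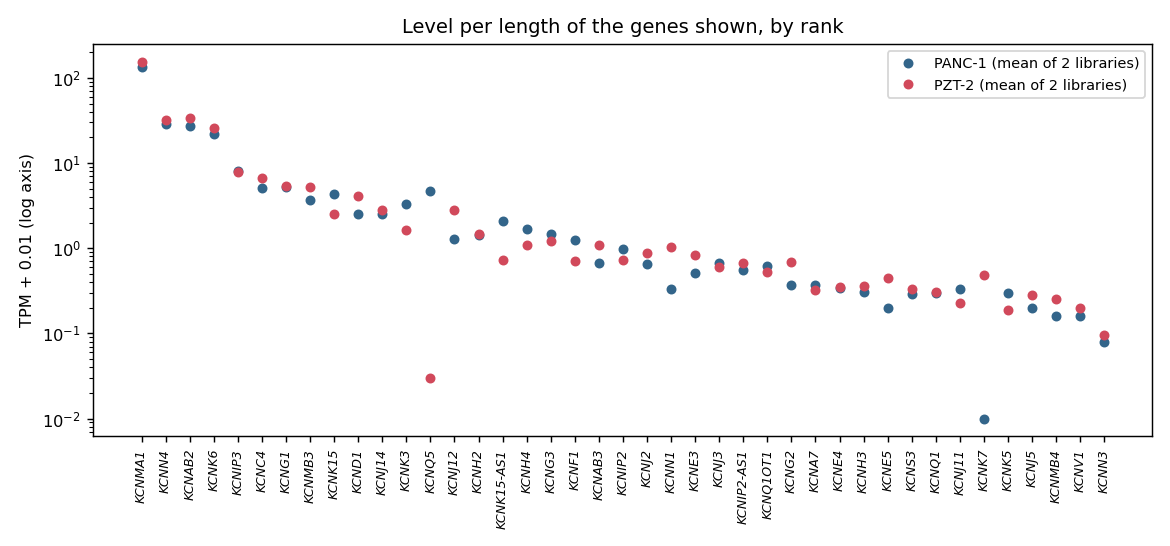
Level of 41 potassium channel genes in rank order of the mean over 4 libraries, in TPM plus 0.01 on a log axis, with 1 point per cell line at the mean of 2 libraries. KCNMA1 stands apart at the top in both lines, and KCNQ5 shows the widest gap between the lines, with 4.13 and 5.17 TPM in PANC-1 and 0 and 0.0396 TPM in PZT-2.

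By transcript, the family had 64 transcripts with a value of 251 listed, and 38 genes had only 1. Of 61 tested apart from that of KCNQ5, edgeR called 0, with 11 at an unadjusted p under 0.05, and DESeq2 called 5. Over all 30403 transcripts tested edgeR called 45 and DESeq2 4400, so that the tools differ in their calls at this level for all genes. How the counts of a gene were divided between its transcripts was not tested, and the values that follow are a description. For KCNMB3, NM_171829 had 16 and 14 counts in PANC-1 and 37 and 69 in PZT-2 (log2 change 1.77, adjusted p = 0.252 in edgeR and 0.116 in DESeq2). NM_171830 had 21 and 35 against 7 and 17 (-1.21, adjusted p = 0.529 in edgeR and 0.583 in DESeq2). For KCNAB2, NM_001199863 had 231 and 188 against 436 and 408 (0.97, adjusted p = 0.169 in edgeR and 0.00452 in DESeq2). NM_003636 had 137 and 285 against 56 and 109 (-1.33, adjusted p = 0.284 in edgeR and 0.0553 in DESeq2). How the reads were assigned to overlapping transcripts enters each of these values.

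The genes beside KCNQ5 on chromosome 6 had transcripts in both cell lines. Of the 5 nearest tested genes on each side, 1 was called and 9 were not, beside 28.4% called of all genes tested, with log2 fold changes from -0.46 to 0.32. Before KCNQ5 these were FAM135A (0.21), SDHAF4 (0.32), SMAP1 (-0.12), OGFRL1 (0.27) and LINC00472 (-0.16). After it came KHDC1 (0.09), OOEP (-0.03), DDX43 (-0.04), CGAS (0.05) and MTO1 (-0.46). MTO1, a mitochondrial tRNA modification gene, had 693 and 575 normalized counts in PANC-1 and 463 and 458 in PZT-2 (standard error 0.107, adjusted p = 0.0216). When PZT-2 replicate 1 or 2 was left out its adjusted p was 0.0771 or 0.0960. OGFRL1 passed without PANC-1 replicate 1 (adjusted p = 0.0438), and SDHAF4 with limma-trend on log2(TPM + 1) (adjusted p = 0.0296). The 760 tested genes of chromosome 6 had a median log2 fold change of -0.02.

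**Figure D4:**
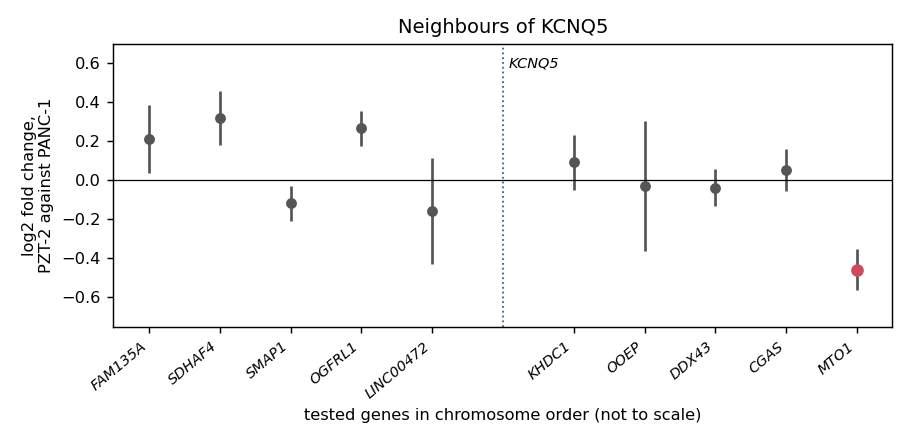
Log2 fold change of PZT-2 against PANC-1 with its standard error for the 5 nearest tested genes on each side of KCNQ5, in their order on chromosome 6. KCNQ5 itself is not drawn, and the values lie between -0.46 (MTO1, in red, adjusted p = 0.0216) and 0.32 (SDHAF4).

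Other genes of potassium transport were read from 4 lists. The Na,K-ATPase pumps potassium in and sodium out and so builds the gradient that the channels use. Of 18 genes of the Na,K-ATPase and the related H,K-ATPase, 6 were tested, 4 rose, 0 fell and 2 did not pass, where 14.7% of all genes tested were called higher and 13.7% lower. ATP1B3, a beta subunit, rose from 2635 and 2647 normalized counts to 4033 and 4161 (log2 fold change 0.63, standard error 0.0529, adjusted p = 0.000674), and lies on chromosome 3 with its median of 0.43. ATP1B1 rose from 1314 and 1427 to 1644 and 1649 (0.26, adjusted p = 0.0270), and FXYD5, a regulatory subunit, from 618 and 597 to 745 and 800 (0.35, adjusted p = 0.0167). The call of ATP1B1 was lost without PZT-2 replicate 1 (adjusted p = 0.123) or 2 (0.143), and that of FXYD5 without PZT-2 replicate 2 (0.112).

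Cation-chloride cotransporters carry potassium together with chloride. Of 7, 4 were tested, 2 fell and 2 did not pass, beside the 13.7% of all genes called lower. SLC12A7, the potassium-chloride cotransporter KCC4, had 11166 and 10984 normalized counts in PANC-1 and 8385 and 8303 in PZT-2 (log2 fold change -0.41, standard error 0.0443, adjusted p = 0.00151). Per transcript length it stood at 266 and 270 TPM in PANC-1 and 211 and 208 TPM in PZT-2. KCNMA1, the highest channel gene, stood at 126 and 141 TPM in PANC-1 and 150 and 158 TPM in PZT-2. SLC12A2, the inward cotransporter NKCC1, had 348 and 436 against 263 and 260 (-0.59, standard error 0.129, adjusted p = 0.0172), a call lost without PZT-2 replicate 1 or 2 (adjusted p = 0.0686 and 0.0825). Of 22 channel partners with other names, among them calmodulin, ankyrins and kinases that make the lipid KCNQ channels need, 13 were tested. Of these edgeR called 0, beside 28.4% of all genes tested, with 5 at an unadjusted p under 0.05. DESeq2 called 0 of the 11 for which it gave an adjusted p. Of 7 other potassium-permeable channels 6 were tested and 1 rose, beside 14.7% of all genes. That gene, TMEM38A, which encodes a channel of the endoplasmic reticulum, had 65.3 and 61.5 against 96.6 and 94.9 (0.60, standard error 0.169, adjusted p = 0.0413). Its call was lost with each library left out (adjusted p = 0.0641 and 0.112 without PANC-1 replicates 1 and 2, 0.165 and 0.163 without PZT-2 replicates 1 and 2). The medians of the 4 lists were 0.29, -0.14, 0.10 and -0.06, against 0.000953 over all genes tested.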

How the data were processed

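Per the methods and labels, the authors trimmed paired reads of 76 bases with Trim Galore 0.4.1, quantified RefSeq transcripts with kallisto 0.43.0, and ran sleuth 0.29.0 on PZT-2 against PANC-1. The release of the index is not given in the sources used here, and the submitters' processing notes name hg19. The deposited estimated counts were taken to carry 1 factor per library from sleuth. For each library the factor was searched that made most low counts of genes with 1 transcript whole. The share reached is therefore no separate check. With it 49.0% to 49.8% of those values between 0.5 and 30 were whole to within 0.01, against 0.635% to 2.71% as deposited. The deposited TPM values sum to 940619 to 1000097 per library, and TPM was recomputed from the recovered counts and effective lengths. The columns of the authors' own test (effects, p and q values) were not used, only their gene symbols.

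Transcripts were named by symbol (27049) or through RefSeq accession (3925 of 31077), and 103 with 0.0467% of counts stayed unnamed. Estimated counts were summed per gene and rounded. Genes that reached 5 counts in 2 or more of the 4 libraries entered the quasi-likelihood test of edgeR 4.0.16 (TMM factors, Benjamini-Hochberg adjustment over all genes, threshold 0.05) in R 4.3.3. The standard error is the log2 fold change divided by the root of the F statistic. The test was checked on simulated counts in which only genes of higher level were changed. That check does not show how well changes of the low channel genes are found. A single value of 2 against 2 libraries cannot go below p = 0.333 in a two-sided exact permutation test, so none was run. Alternatives were DESeq2 1.42.0, limma-trend 3.58.1 on log2(TPM + 1) and log2(TPM + 0.1), RLE factors, other filters, counts as deposited, a replicate block, the most abundant transcript alone, symbols only and each library left out.

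The channel genes and all lists were chosen with earlier results of these data known. Named genes are KCNQ5, each called gene, the KCNQ and KCNE genes, the 10 highest in TPM, the 3 largest changes each way among genes not called with at least 20 normalized counts, the neighbours of KCNQ5 and the called transport genes. Other channel genes are given by counts. Results for some genes, which stay in the counts over the family and the lists, are not reported here.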

Additional observations from a re-analysis of the deposited data

How the results depend on the processing

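With 2 libraries per line, leaving 1 out assumes that the lone library varies like the other pair. Of 8 channel genes called, DESeq2 called 5 of 28 with an adjusted p, the most abundant transcript alone gave 4, and leaving out each library gave 5 to 9, with 5 without PZT-2 replicate 1. Over all genes the count of 4287 became 2126 with the most abundant transcript alone and 2030 to 4611 with each library left out (2030 when PZT-2 replicate 2 was left out and 2463 when replicate 1 was). Of the other potassium transport genes 7 were called, 4 with the most abundant transcript alone and 2 to 8 with each library left out (3 when PZT-2 replicate 1 was left out and 2 when replicate 2 was). Beside KCNQ5 the count of 1 became 2 with limma-trend on log2(TPM + 1) or log2(TPM + 0.1), 0 with the most abundant transcript alone, and 0 to 2 with each library left out. The fitted log2 fold change of KCNQ5, which depends on the prior count and is no bound, was -7.74, against -2.46 on log2(TPM + 1), -5.32 on log2(TPM + 0.1) and -10.90 to -6.83 with a PZT-2 library left out (-10.90 without replicate 2). KCNQ5 was not tested without either PANC-1 library or with at least 10 counts in all 4. The cause of these shifts was not tested.

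Equal replicate numbers did not pair the libraries (correlation of deviations -0.0232). With 2 libraries per line this is a single value, since both numbers must give the same. With a replicate block 6 channel genes and 3741 genes in all were called, and the calls of KCNN1 (adjusted p = 0.0801), KCNK7 (0.0607) and TMEM38A (0.0747) were lost. KCNN1 also lost its call with counts as deposited (0.0531) and with symbols only (0.0519), KCND1 with limma-trend on log2(TPM + 0.1) (0.0537), SLC12A2 with limma-trend on log2(TPM + 1) (0.0844), and KCNK7 had no adjusted p in DESeq2. Of 561 values of 41 single genes, 514 stayed on their side of the threshold, 39 lost a call, 8 gained one and none of the called values changed sign. Depth limits the 21 channel genes below 20 normalized counts.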
